A study of Mus musculus with 5 samples.

Results

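Genes of 7 secreted growth factors were followed in mouse muscle mesenchymal cells before and after injury: Hgf, Fgf1, Fgf2, Fgf7, Fgf10, Mdk and Ptn. They were matched by symbol, each once among the 28001 features of the gene table, and were chosen with earlier results of these data known. The cells came from whole hindlimb muscle of C57BL/6J mice of 8 weeks with the genotype Hic1CreERT2/CreERT2;Rosa26LSLtdTomato/+, in which tamoxifen switches on the red protein tdTomato in cells that express Hic1 and in their descendants. All groups, the uninjured one included, carried CreERT2 on both Hic1 alleles and had received 2.5 mg of tamoxifen in 100 uL of sunflower oil on each of 5 days, followed by 10 days of washout. The 5 groups were quiescent muscle and muscle 1, 2, 4 and 14 days after notexin, a snake venom phospholipase that destroys muscle fibres. Each group was 1 library of sorted cells made with the 10x Chromium 3' chemistry, and the number of animals behind a library is not given in the sources used here. Differences between days therefore compare libraries, share the quiescent library, carry no p-value, and have intervals that cover counting error only.

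Hepatocyte growth factor (Hgf) and the fibroblast growth factors (Fgf genes) bind receptor tyrosine kinases, and many of them are held on heparan sulphate in the matrix until released. In muscle, HGF and FGF2 are known for waking and expanding satellite cells, while FGF7 and FGF10 are classically made by mesenchyme and act on epithelia. Midkine (Mdk) and pleiotrophin (Ptn) are a pair of related heparin-binding factors with roles in development, nerve growth and repair.

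On GRCm38, in the GENCODE annotation, Hgf lies at chr5:16553495-16620152 on the plus strand and Fgf2 at chr3:37348346-37410108 on the plus strand. Fgf10 lies at chr13:118669791-118792115 on the plus strand, and Mdk at chr2:91929805-91932297 on the minus strand. Fgf1 is on chromosome 18, on the minus strand. All are protein-coding genes, and a value counts UMIs over the whole gene. On the same strand, Hgf overlaps Gm43489 and Gm42975, and Fgf2 overlaps Gm43439. On the other strand, Fgf2 overlaps Nudt6, Fgf7 overlaps Fam227b, Fgf1 overlaps Arhgap26 and Fgf10 overlaps Gm16263. Whether the counting used strand is not stated in the sources used here, so whether it kept UMIs of such pairs apart is not known here. Nudt6 itself had 4.39 to 7.54 UMIs scaled to a common total (CPM) in the cells described next.

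The libraries held 8043771 to 44552329 UMIs in 2170 to 4820 barcodes, and 17085 of 17213 barcodes had at least 500 genes and at most 10% mitochondrial UMIs. Cells with at least 5 UMIs of the tendon markers Tnmd, Fmod, Kera and Chad were taken as tenocytes (1394 cells), and those with at least 5 UMIs of the pericyte and smooth muscle markers Rgs5, Kcnj8, Abcc9 and Higd1b as mural cells (608 cells). The other 15077 cells, called remaining cells here, had Pdgfra, the receptor that marks mesenchymal progenitors, at 190 to 318 CPM in every library, against 25.3 to 102 in tenocytes. The 6 cells that met both cuts were left out, 314 cells lay near the tenocyte cut and 46 near the mural cut, at 3 to 6 marker UMIs. The tenocyte share of kept cells was 3.80% to 5.89% in 4 libraries and 23.1% at day 14. Depth also moved with the groups: the median remaining cell held 3883 UMIs before injury and 8788, 11165, 7072 and 4938 on days 1, 2, 4 and 14. Of 17059 distinct barcodes, 154 occurred in more than 1 library, with 8 to 26 shared by any pair.

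CPM are UMIs of a gene summed over the cells of a class and scaled to a common total, so each gene can be followed across libraries; levels of different genes are not compared. Between libraries a gene counted as different at a ratio of at least 2, with 20 CPM or more on the higher side. At day 1, 4 of the 7 genes reached that level in either library, and 3 of them were lower than in the quiescent library and 0 higher, where 24.3% of all 6045 genes compared were lower and 15.5% higher. At day 2, 1 of 4 was higher and 2 were lower, against 11.3% higher and 17.4% lower. At day 4, 1 of 4 was higher and 1 lower, against 6.34% and 9.92%. At day 14, 1 of 5 was higher and 0 lower, against 1.04% and 0.643%. The median log2 ratio of the genes that reached the level was -1.36, -1.21, 0.26 and 0.02 on days 1, 2, 4 and 14, beside -0.15, -0.03, 0.02 and -0.01 over all genes compared. The scaling matters most early: with TMM factors in place of total UMIs the median of all genes moved up on the log2 scale by 0.53, 0.24, 0.13 and 0.02 on days 1, 2, 4 and 14, and with DESeq2 size factors by 0.56, 0.29, 0.15 and 0.01. Over all genes the split of higher against lower calls was 935 to 1470 at day 1 and became 1961 to 708 with TMM and 2013 to 689 with DESeq2. At day 2 it was 687 to 1055 and became 1140 to 659 and 1260 to 606, and at day 4 it was 377 to 590 and became 478 to 445 and 509 to 421. Only the lower Ptn of the 3 day 1 calls passed 2-fold under both other scalings.

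**Figure D1:**
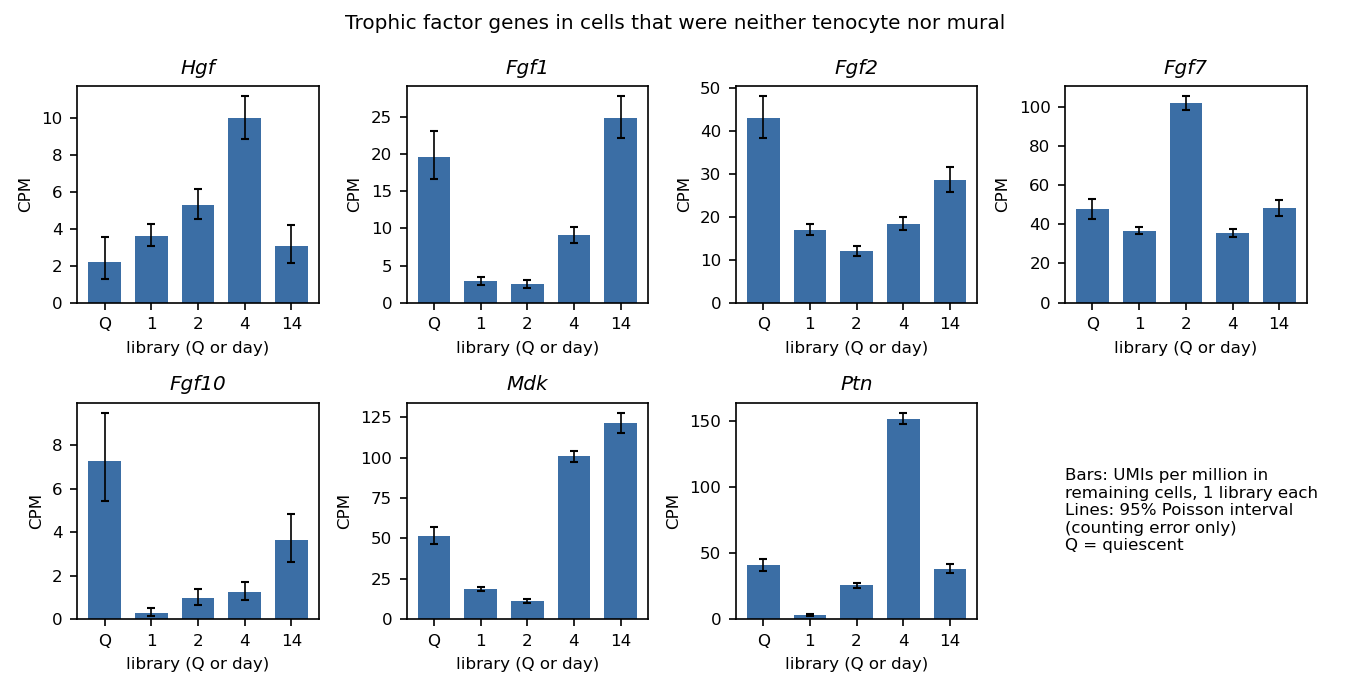
Level of each of the 7 genes in the remaining cells (y axis, CPM; each panel has its own scale) in the quiescent library (Q) and 1, 2, 4 and 14 days after notexin, as bars with 95% Poisson intervals. The genes peak in different libraries: Fgf2 and Fgf10 before injury, Fgf7 at day 2, Hgf and Ptn at day 4, Fgf1 and Mdk at day 14.

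Hgf, the ligand of the receptor Met, was a rare transcript that was highest at day 4. In the remaining cells it had 2.19 CPM before injury and then 3.63, 5.28, 9.98 and 3.05 on days 1, 2, 4 and 14, from 16, 155, 167, 300 and 38 UMIs. Day 4 was above day 2, which was above day 1. Day 1 and day 14 did not differ beyond counting error, and neither did day 14 and quiescent. The day 4 level was 4.56-fold the quiescent one (95% interval 2.76 to 8.08), but no library reached the 20 CPM minimum, so this was not counted as a call. At day 4, 12 cells with 5 or more Hgf UMIs held 29.0% of the UMIs. Of the day 4 Hgf UMIs in remaining cells, 90.0% came from cells with at least 5 UMIs of the matrix genes Postn and Cthrc1, which held 74.6% of all UMIs (12 CPM against 3.92 in the others, ratio 3.07, interval 2.10 to 4.64). The 38 day 4 cells with at least 2 Hgf UMIs had Spp1, which encodes osteopontin, at 15560 CPM against 1920 in the other cells, a gene looked at after its values were seen. These 38 cells had a median of 13465 UMIs against 7021 in the others, no doublets were removed, and the part of depth or doublets was not tested. Tenocytes held at most 5 Hgf UMIs in a library and mural cells at most 2.

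Fgf7, keratinocyte growth factor, stood out at day 2. It had 47.7 CPM before injury and then 36.7, 102, 35.4 and 48.3 on days 1, 2, 4 and 14. Day 2 was above all others, and day 14 did not differ from quiescent (ratio 1.01, interval 0.88 to 1.16). Day 2 was 2.13-fold quiescent (interval 1.91 to 2.39; under 2-fold by the mean of per-cell CPM) and 2.77-fold day 1 (interval 2.61 to 2.95), and day 4 was 2.88-fold below day 2 (interval 2.68 to 3.09). The day 1 value lay below quiescent on total UMIs (ratio 0.77, interval 0.68 to 0.87) and above it with TMM or DESeq2 factors. The share of remaining cells with a Fgf7 UMI was 15.7%, 23.2%, 53.3%, 19.6% and 18.3% in the same order, and 4.96%, 4.14%, 9.60%, 3.88% and 4.79% after each cell was thinned to 1000 UMIs, which left out 24 remaining cells of the quiescent library and none of the others. In mural cells the unthinned share was 0.893% in the quiescent library (median depth 1427 UMIs) and 14.3% at day 2 (median 5410), while at 1000 UMIs a cell it was 0 of 100 cells and 0 of 42, which allows shares of up to 3% and 7.14%. At day 2, 184 cells with 5 or more Fgf7 UMIs held 39.6% of the UMIs, against 2.00% in 2 such cells at day 14.

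Fgf7 is the one of the 7 genes counted as higher at day 2, so the bases before its start are shown. They are the 250 bases ahead of the first annotated start of Fgf7, at chr2:126034408-126034657 on the plus strand of GRCm38.p6, from RefSeq, 5′ to 3′, all in lower case because no searched motif was in them; the gene follows to chr2:126091185.
Fgf7: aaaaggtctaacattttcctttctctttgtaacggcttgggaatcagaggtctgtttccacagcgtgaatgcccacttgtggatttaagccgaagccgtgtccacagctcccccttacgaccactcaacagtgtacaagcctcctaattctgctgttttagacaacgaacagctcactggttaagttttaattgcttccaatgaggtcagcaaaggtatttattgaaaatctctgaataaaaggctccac
Of these bases, 43.6% were G or C. Both strands were searched for the letters TGANTCA for the factor AP-1, TATAAA for the core promoter box of that name, GGGCGG for the GC box, and CATTCC for the TEAD factors. Among all 32851 promoters of the table, 6.75% held the first, 12.4% the second, 32.7% the third and 12.6% the last. No match in this window says only that these letters are not in it.

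Tenocytes had Fgf7 at 15.8 CPM before injury and then 38.7, 88.6, 27.2 and 7.10 on days 1, 2, 4 and 14, from 8 to 65 UMIs. Here too day 2 was above every other library. The ratio of tenocyte to remaining level was 0.33 before injury (interval 0.14 to 0.66) and 1.06 at day 1 (interval 0.79 to 1.38). It was 0.87 at day 2 (interval 0.67 to 1.11) and 0.77 at day 4 (interval 0.55 to 1.05). At day 14 the tenocyte level was 6.80-fold below (interval 4.71 to 10.2). Mural cells had 15.3, 9.64, 38.3, 11.7 and 4.89 CPM, from 3 to 16 UMIs, below the remaining cells in all 5 libraries. Among remaining cells, those with at least 5 UMIs of Clu and Gdf10, 37 to 58 cells a library, had 98.2, 97.0, 135, 93.4 and 136 CPM, 1.33-fold to 2.96-fold the other remaining cells of their library. In those few cells the quiescent level was within the range of the later ones.

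Fgf2, basic fibroblast growth factor, was highest before injury and lower at each day after it. In remaining cells it had 43.1 CPM before injury and then 16.9, 12, 18.4 and 28.6 on days 1, 2, 4 and 14. Days 4 and 1 did not differ beyond counting error, and day 14 lay between them and quiescent. It was 2.54-fold below quiescent at day 1 (interval 2.22 to 2.91), 3.60-fold at day 2 (interval 3.09 to 4.19), 2.34-fold at day 4 (interval 2.03 to 2.69) and 1.51-fold at day 14 (interval 1.29 to 1.76). The day 1 and day 4 values passed 2-fold by a small margin: with TMM or DESeq2 factors the day 1 value did not pass, and with per-cell means the day 4 value did not. Its share of cells was 13.0%, 12.8%, 12.4%, 11.7% and 11.8%, at the differing depths given above. At 1000 UMIs a cell it was 3.52%, 1.72%, 1.5%, 2.23% and 2.43%. Tenocytes had 15.8, 22.8, 17.7, 9.95 and 9.23 CPM, with no neighbours in order apart beyond counting error. The highest of these, day 1 (interval 15.7 to 32.1), still lay above the lowest, day 14 (interval 6.57 to 12.6). Mural cells had 4.89 to 12.1 CPM from 1 to 6 UMIs.

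Fgf1, acidic fibroblast growth factor, was low at days 1 and 2 and high before injury and at day 14. Remaining cells had 19.7 CPM before injury and then 2.93, 2.46, 9.12 and 24.9 on days 1, 2, 4 and 14. Days 1 and 2 did not differ beyond counting error and the other 3 libraries were each apart. The quiescent level lay just under the 20 CPM minimum, so the 6.73-fold lower day 1 (interval 5.26 to 8.62) and the 7.99-fold lower day 2 (interval 6.03 to 10.7) were not counted as calls, while day 14 was 1.26-fold quiescent (interval 1.03 to 1.55). Mural cells had 5.08, 4.82, 16.8, 16.7 and 29.4 CPM, from 1, 2, 7, 10 and 24 UMIs. At day 2 this was 6.81-fold the remaining cells (interval 2.65 to 14.7), and in the other libraries the interval of the ratio held 1. Tenocytes had 0 to 18 Fgf1 UMIs in a library, 4.26 CPM at day 14.

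Fgf10, a ligand of Fgfr2 made by mesenchyme around epithelia and fat, was highest in the quiescent library and close to the floor at day 1. Remaining cells had 7.25 CPM, 0.28, 0.98, 1.23 and 3.61 CPM in order, from 53, 12, 31, 37 and 45 UMIs. Every library after injury was below quiescent, by 25.8-fold at day 1 (interval 13.6 to 53.0) and 2.01-fold at day 14 (interval 1.32 to 3.05), all under the 20 CPM minimum. All but 1 of its UMIs lay in remaining cells, the exception being a tenocyte at day 14. Mural cells had 0 UMIs in every library, which allows a level of up to 3.67 CPM in the 243 cells of day 14 and up to 15.3 CPM in the 112 cells before injury, at 3 UMIs.

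Midkine (Mdk) was low at days 1 and 2 and above quiescent at days 4 and 14. Remaining cells had 51.7 CPM before injury and then 18.7, 11.1, 101 and 121 on days 1, 2, 4 and 14, and each library was apart from its neighbours in that order. It was 2.77-fold below quiescent at day 1 (interval 2.44 to 3.13) and 4.68-fold below at day 2 (interval 4.03 to 5.42). Day 4 was 9.10-fold day 2 (interval 8.15 to 10.2) and 1.95-fold quiescent (interval 1.75 to 2.17), just under the 2-fold limit, and above it with TMM or DESeq2 factors. Day 14 was 2.35-fold quiescent (interval 2.10 to 2.64), one of 60 higher genes among 5757. At 1000 UMIs a cell the share with Mdk was 5.17%, 2.25%, 1.16%, 8.27% and 9.98%, against unthinned shares of 13.6%, 11.9%, 10.5%, 33.1% and 24.5%. In mural cells the thinned share was at most 2.63%, which was 3 of 114 cells at day 4.

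Pleiotrophin (Ptn) varied widely, both across libraries and across cell classes. In remaining cells it had 40.8 CPM before injury and then 3.12, 25.5, 152 and 37.9 on days 1, 2, 4 and 14. Day 4 was above all others, day 1 below all others, and day 14 did not differ from quiescent (ratio 0.93, interval 0.80 to 1.08). It was 13.1-fold below quiescent at day 1 (interval 10.6 to 16.2), 8.18-fold higher at day 2 than at day 1 (interval 6.80 to 9.91), 5.95-fold higher at day 4 than at day 2 (interval 5.52 to 6.42) and 4.01-fold lower at day 14 than at day 4 (interval 3.64 to 4.41). The day 4 level was 3.72-fold quiescent (interval 3.31 to 4.20). A few cells held much of it: the 319 day 4 cells with 5 or more UMIs had 67.2% of the UMIs, and the 17 such quiescent cells had 47.0%. The day 4 share of cells with a UMI was 29.5%, or 9.29% at 1000 UMIs a cell. In mural cells, whose median depth was 4059 UMIs against 7072, these shares were 8.77% and 1.75%. The latter rests on 2 of 114 cells (interval 0.21% to 6.19%). The quiescent share was 5.42%, or 2.93% thinned.

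Schwann cell markers summed to 108 CPM in remaining cells at day 14, against 3.49 to 15.7 in the other libraries, with all 5 markers detected. The 48 day 14 cells with at least 3 Ptn UMIs had S100b, a gene of glial and cartilage cells, at 228 CPM against 13.1 in the others. They also had Sbspon at 314 CPM against 14.5, Thbs4 at 863 against 200 and Omd at 248 against 47.4. These genes were looked at after their values were seen, and the cell type of the 48 cells was not tested. Median depths were 5703 UMIs in these cells and 4930 in the others. Without cells with 3 or more UMIs of myogenic, Schwann, perineurial, endothelial or immune markers the day 14 log2 ratio of Ptn was -0.12, against -0.10 with them, and at day 4 it was 1.86 against 1.87. Tenocyte markers in remaining cells also differed, from 5.90 CPM at day 1 to 74.8 at day 14. In cells with none of their UMIs, Ptn had 36.9 CPM before injury. It then had 2.10, 18.1, 134 and 27.9 CPM on days 1, 2, 4 and 14. The part of tenocytes or of other cell types in the Ptn levels of remaining cells was not tested.

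The bases before the start of Ptn are shown because the class differences below turn on it. They run from the RefSeq promoter window to the base before the first annotated start, 209 bases at chr6:36810221-36810429 on the minus strand of GRCm38.p6, printed 5′ to 3′ on that strand; the gene continues to chr6:36714929.
Ptn: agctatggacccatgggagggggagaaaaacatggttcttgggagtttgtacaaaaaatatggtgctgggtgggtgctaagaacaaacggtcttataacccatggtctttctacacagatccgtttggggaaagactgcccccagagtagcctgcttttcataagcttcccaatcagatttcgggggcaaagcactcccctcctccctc
These were 49.8% G or C, and as for Fgf7 held none of the 4 motifs.

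Tenocytes had higher levels of Ptn and Mdk than the remaining cells. They had Ptn at 1105 CPM before injury and then 163, 687, 834 and 1934 on days 1, 2, 4 and 14, and each library was apart from its neighbours in order. Mdk in tenocytes was 192, 47.0, 68.2, 180 and 367 CPM in the same order, with day 14 above all others and days 1 and 2 below the rest. In each of the 5 libraries both genes were above the remaining cells, Ptn by 5.49-fold at day 4 to 52.2-fold at day 1 and Mdk by 1.79-fold at day 4 to 6.16-fold at day 2. In edgeR's quasi-likelihood test on UMI sums of the classes, with the library as a block and Benjamini-Hochberg adjustment over 9431 genes, 5 of the 7 genes passed the filter on low counts, which Hgf and Fgf10 did not. In tenocytes 2 of the 5 were higher and 1 lower, where 6.73% of all genes were higher and 8.72% lower. The median log2 difference of the 5 was -0.65, beside -0.08 over all genes.

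Ptn was higher in tenocytes by 4.70 ± 0.39 on the log2 scale (SE, adjusted p = 1.4e-06, edgeR, higher in 5 of 5 libraries) and Mdk by 1.63 ± 0.28 (adjusted p = 0.00105, edgeR, 5 of 5 libraries). Fgf1 was lower in tenocytes, with a log2 difference of -2.05 ± 0.49 (adjusted p = 0.0100, edgeR). Fgf7 (-0.89 ± 0.31, adjusted p = 0.0732) and Fgf2 (-0.65 ± 0.31, adjusted p = 0.192) did not pass edgeR's test. The 5 libraries are 5 time points, so the test asks for a difference held on average over them. Without the library as a block, Ptn alone passed, and without the day 14 library Fgf1 did not pass the filter on low counts.

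Mural cells had lower levels of most of these genes. Their Ptn was 5.08 CPM before injury and then 2.41, 4.79, 30.0 and 14.7 on days 1, 2, 4 and 14, from 1 to 18 UMIs. Mdk was 10.2, 9.64, 4.79, 56.7 and 13.5 CPM, from 2 to 34 UMIs. Day 4 was above day 14, the next library, for Mdk (ratio 4.21, interval 2.08 to 9.22), and for Ptn they did not differ beyond counting error (ratio 2.04, interval 0.93 to 4.65). In the same edgeR fit, 4 of 5 genes were lower in mural than in remaining cells and 0 higher, where 17.2% of all genes were lower and 10.6% higher (1619 and 1003 genes, or 897 and 1990 with total UMIs in place of TMM factors, where the same 4 genes were called). The median log2 difference was -1.83, beside -0.10 over all genes. The differences were -2.26 ± 0.42 for Fgf7 (adjusted p = 0.00101, edgeR), -1.83 ± 0.41 for Mdk (adjusted p = 0.00351, edgeR), -2.15 ± 0.52 for Ptn (adjusted p = 0.00633, edgeR) and -1.64 ± 0.43 for Fgf2 (adjusted p = 0.0105, edgeR). Fgf1 was 0.41 ± 0.44 with an adjusted p of 0.541 in edgeR's test. Fgf2 lost its call without the quiescent library (adjusted p = 0.0510, edgeR) and without day 14 (adjusted p = 0.0633, edgeR), and Mdk and Ptn lost theirs without the block (adjusted p = 0.135 and 0.106, edgeR).

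**Figure D2:**
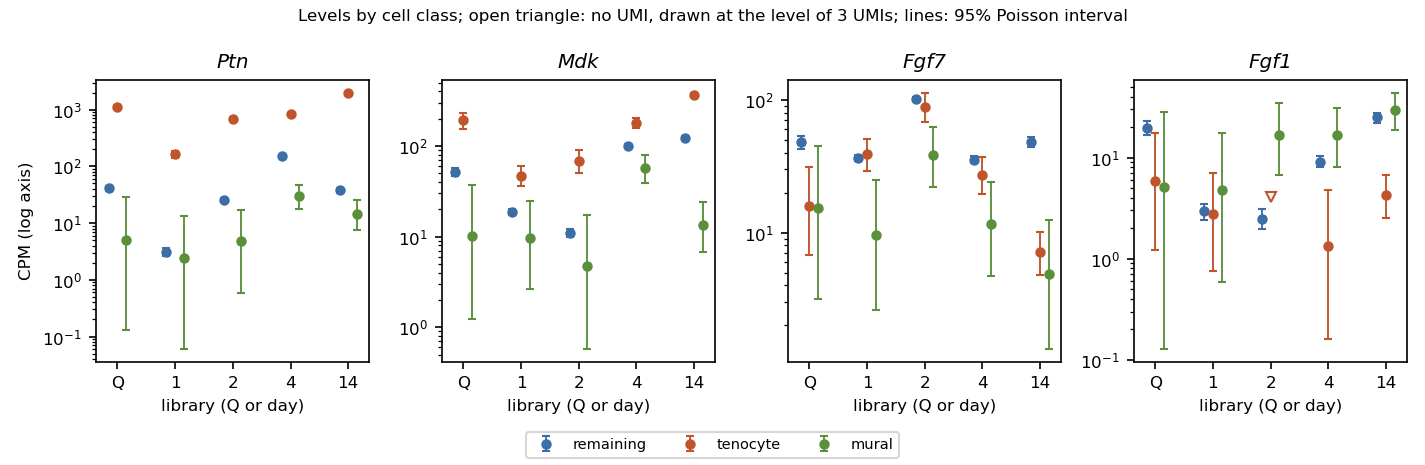
Level (y axis, CPM, log axis) of Ptn, Mdk, Fgf7 and Fgf1 in remaining, tenocyte and mural cells of each library (x axis, quiescent or day after notexin); points are library values and lines 95% Poisson intervals, and open triangles mark classes without a UMI. Tenocyte Ptn lies above the other classes in all 5 libraries. Tenocyte Fgf7 lies below the remaining cells before injury and at day 14, and near them at days 1 and 2.

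The source of the transcripts depends on cell numbers as well as levels. Of all Ptn UMIs, tenocytes held 65.2% before injury and 63.7%, 38.4%, 21.5% and 94.4% on days 1, 2, 4 and 14. Of all Mdk UMIs they held 20.3%, 7.83%, 12.4%, 8.16% and 50.5%. Tenocytes were 23.1% of the kept cells at day 14, and the part this share plays in those values was not tested. For Hgf, Fgf1, Fgf2, Fgf7 and Fgf10 the remaining cells held 88.1% to 100% of the UMIs in every library.

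Ptn was higher in cells with more tenocyte marker UMIs, also below the class cut. Before injury it was 36.9 CPM in cells with 0 marker UMIs, 47.7 with 1 to 2, 413 with 3 to 4 (13 cells), 610 with 5 to 9 (11 cells) and 1141 with 10 or more. At day 4 the same bins had 134, 230, 368, 367 and 1198 CPM, and at day 14 they had 27.9, 54.2, 109, 545 and 1994. The day 4 library had the highest of these 3 levels in cells with 0 to 2 marker UMIs, while day 14 had it in cells with 10 or more. Mdk was 49.2 CPM in cells with 0 marker UMIs and 191 in those with 10 or more before injury, and 115 and 376 at day 14. Marker UMIs depend on depth as well as on cell type, and the bins at day 4 had median depths of 5872 to 10526 UMIs; the part of depth was not tested.

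**Figure D3:**
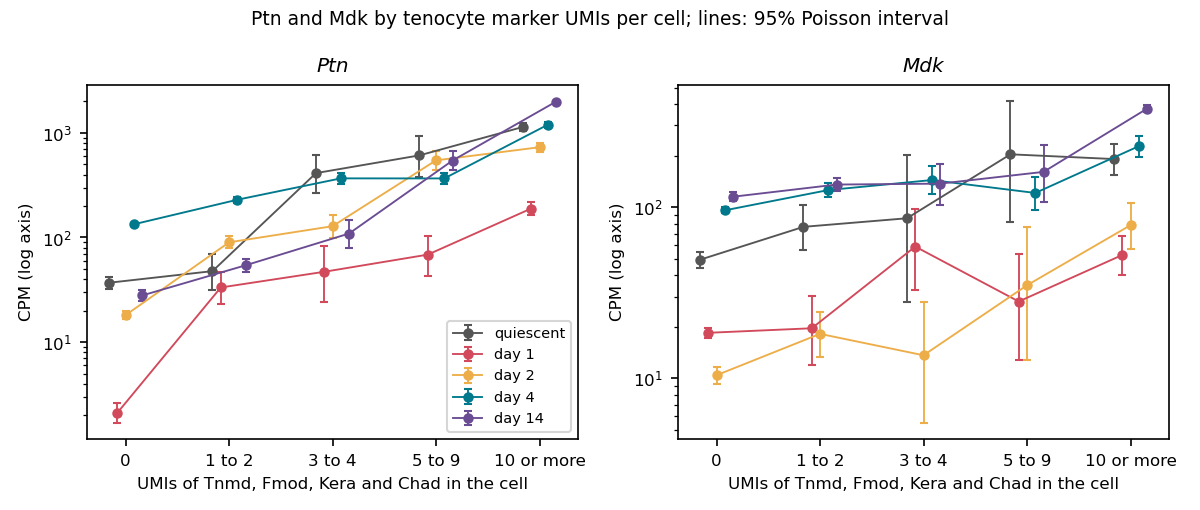
Level (y axis, CPM, log axis) of Ptn and Mdk in cells binned by their UMIs of 4 tenocyte markers (x axis), 1 line per library with 95% Poisson intervals. Ptn climbs from 36.9 to 1141 CPM before injury and from 134 to 1198 at day 4, and Mdk has a smaller range.

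Among remaining cells, Mdk and Fgf2 were high in different marker groups. Cells were grouped by at least 5 UMIs of a small marker set, and a cell could be in more than 1 group. In the quiescent library, cells with Hsd11b1 and Cxcl14 (357 cells) had Mdk at 127 CPM, 3.82-fold the other remaining cells (interval 3.1 to 4.70), and Fgf2 at 6.24, 8.35-fold below them (interval 4.34 to 18.4). Cells with Stmn4 and Efemp1 (380 cells) had the reverse, with Fgf2 at 96.8 CPM, 3.95-fold the others (interval 3.14 to 4.98), and Mdk at 2.13, 32.4-fold below (interval 12.5 to 119, from 4 UMIs). Cells with Dmkn, Sbsn and Krtdap (177 cells) had Fgf2 at 126 CPM, 3.93-fold the others (interval 3.09 to 4.98), with Mdk at 4.61.

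Of these 3 groups, the Hsd11b1 group had the highest Mdk and the lowest Fgf2 in each library after injury too. At day 14 Mdk was 240 CPM in the Hsd11b1 group, 23.2 in the Stmn4 group and 2.25 in the Dmkn group, while Fgf2 was 6.56, 50.1 and 79.4. At day 4 Mdk was 154, 35.5 and 13.4 CPM in these groups and Fgf2 was 7.14, 45.1 and 76.4. At day 1 Mdk was 34.8, 5.65 and 2.52 CPM and Fgf2 was 8.92, 32.3 and 34.9. At day 2, when Mdk was lowest, it was 21.5, 7.64 and 0.86 CPM and Fgf2 was 6.90, 17.3 and 30.7. Fgf1 was high in the Stmn4 group, at 31.4 CPM before injury and 42.2 at day 14, 2.01-fold and 2.75-fold the other remaining cells (intervals 1.41 to 2.83 and 2.18 to 3.48).

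At day 4, cells with Postn and Cthrc1, 2307 of 3810 cells, had Ptn at 188 CPM against 44.9 in the other remaining cells (ratio 4.20, interval 3.76 to 4.70) and Mdk at 120 against 44.3 (ratio 2.70, interval 2.41 to 3.04). Fgf2 was lower there, at 11.1 against 39.9 CPM. The 236 cells with mitotic genes had Ptn at 249 CPM, 1.78-fold the others (interval 1.65 to 1.92). The 37 quiescent cells with Clu and Gdf10 had Ptn at 281 CPM, 7.79-fold the others (interval 5.44 to 10.9). The quiescent Hsd11b1 group had Ptn at 13.9 CPM.

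**Figure D4:**
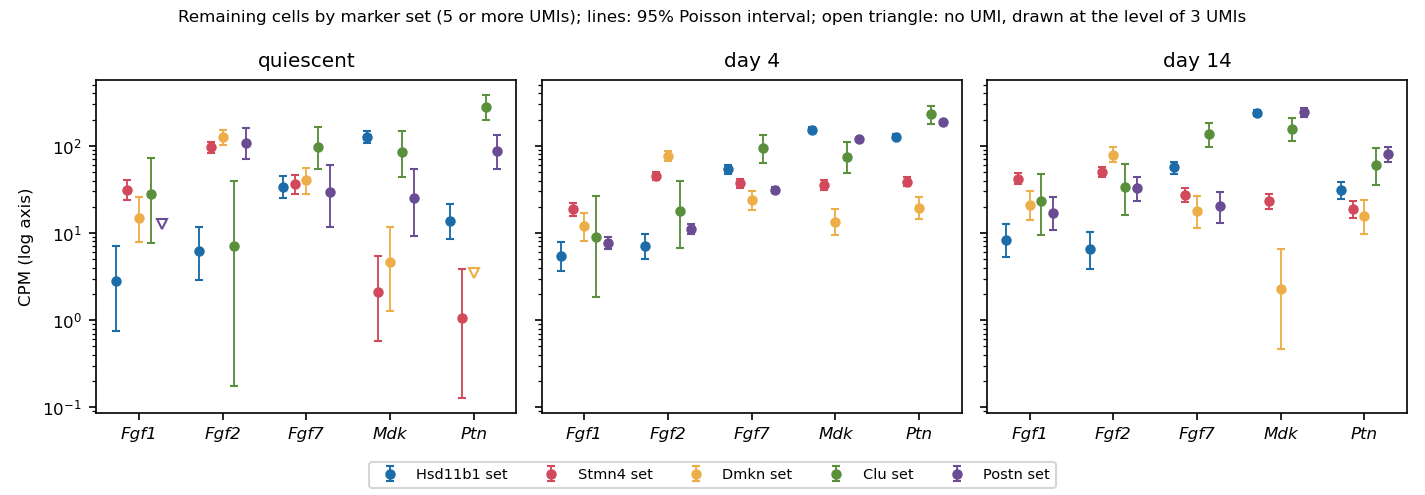
Level (y axis, CPM, log axis) of 5 genes in 5 overlapping groups of remaining cells defined by marker UMIs, in the quiescent, day 4 and day 14 libraries, with 95% Poisson intervals; open triangles mark groups without a UMI. Mdk is high in the Hsd11b1 group and low in the Stmn4 and Dmkn groups, and Fgf2 the reverse, in each of the 3 libraries shown.

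Detection in the same cell was compared after thinning to 2500 UMIs, which left out 390 shallower remaining cells before injury and 65, 0, 63 and 398 on days 1, 2, 4 and 14. Ptn was detected in 10.3% of quiescent remaining cells with Mdk and in 3.91% of those without it, in 3.83% and 0.657% at day 1, in 14.7% and 5.19% at day 2, in 28.7% and 13.7% at day 4, and in 11.3% and 4.59% at day 14. Their exact 95% binomial intervals were apart in each library; in the quiescent one they were 5.98% to 16.1% and 2.95% to 5.09%. At day 4 Mdk was found in 4.23% of cells with Fgf2 (interval 1.84% to 8.17%) and in 17.0% of cells without it (interval 15.8% to 18.3%). In each other library these intervals overlapped. The shares were 4.76% and 10.8% before injury and 3.87% and 4.71% at day 1. They were 0% and 3.23% at day 2 and 13.7% and 18.6% at day 14. Mdk was found in 31.7% of the 60 day 4 cells with Hgf (interval 20.3% to 45.0%), against 16.1% of those without. At days 1 and 2, with 36 and 27 cells with Hgf, the intervals overlapped. In day 14 tenocytes Ptn was in 78.4% of cells with Mdk and 79.1% of cells without it. These intervals cover counting error within a library.

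Across the 15 sums of library and class, the genes most like each member were found by Pearson's r of log2(CPM + 1) among 8281 genes. Sums of 1 library share its depth and time point, so r is a description. Mdk was most like the imprinted gene Mest (r = 0.96), Ssc5d (0.96) and Gaa (0.93), and Ptn most like Fam65c (0.95), Ctsd (0.95) and Edil3 (0.94). Fgf7 was most like Ptges, the prostaglandin E synthase (0.86), Bmper (0.85) and Mgst1 (0.85). Fgf2 was most like Rab7b (0.91), Medag (0.89) and Ifngr1 (0.87), and Fgf10 most like Ace (0.93), Pcsk6 (0.93) and Nhsl1 (0.92). Fgf1 was nearest to Vcpip1 (0.86), Stk11 (0.84) and Rap1a (0.84), and Hgf to Snx2 (0.84), Ric8 (0.82) and Exoc3l4 (0.80).

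Several receptors of these factors had few UMIs in the cells themselves. Met, the HGF receptor, had 7 to 49 UMIs in the remaining cells of a library, and Ptprz1 and Alk, receptors of pleiotrophin and midkine, 1 to 6 and 0 to 1. Fgfr1, a receptor of FGF1 and FGF2, was at 184 CPM before injury and then 81.7, 81.6, 111 and 157 on days 1, 2, 4 and 14. Of 12 FGF receptor and co-receptor genes, 2 reached 20 CPM; Fgfr1 and Flrt2 were both lower at day 2 (2.25-fold and 2.01-fold), 1 of them at day 1, and none at days 4 and 14, and the list's median log2 ratio was -0.93, -1.08, -0.51 and -0.39 over the 4 days. Over all genes compared, 24.3% were lower at day 1 and 17.4% at day 2. With TMM or DESeq2 factors neither Fgfr1 nor Flrt2 passed 2-fold on any day, and the medians of the list stayed below 0. Of 18 other FGF ligand genes, none reached 20 CPM in any of these comparisons.

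Some feedback genes that FGF and other receptor kinases switch on were lower at day 2. Of 14 such genes 5 reached the level, and 3 were lower at day 2 and 0 higher: Spry1, an inhibitor of receptor kinase signalling, was 97.7 CPM in the quiescent library and 29.8 at day 2 (3.28-fold lower, interval 2.97 to 3.62), Spred2 was 27.0 and 10.9 (2.46-fold lower) and Spry2 was 140 and 67.4 (2.08-fold lower). Spry1 and Spred2 passed with TMM and DESeq2 factors too, and Spry2 did not. At days 1 and 4, 1 of 5 was lower, which neither other scaling gave, and at day 14 none was. Their median log2 ratio was 0.12, -1.05, -0.16 and -0.36 over days 1, 2, 4 and 14. Over all genes compared, 24.3%, 17.4%, 9.92% and 0.643% were lower on these days. Dusp6, a phosphatase of ERK, was 31.2 CPM at day 1 against 16.6, and passed 2-fold with TMM (log2 ratio 1.40) and DESeq2 factors (1.43). In tenocytes, 5 of 10 tested feedback genes were higher than in remaining cells in edgeR's test and 0 lower. Over all genes, 6.73% were higher in tenocytes and 8.72% lower. The median log2 difference of the 10 feedback genes was 0.61, beside -0.08 over all genes. Of the 5 higher ones, Dusp6 was higher by 1.91 ± 0.27 on the log2 scale (adjusted p = 0.00017, edgeR) and Spry1 by 0.52 ± 0.17 (adjusted p = 0.0448, edgeR). In mural cells 3 of the 10 feedback genes were higher and 0 lower, while all 3 tested FGF receptor genes were lower. Over all genes, 10.6% were higher in mural cells and 17.2% lower. Fgfr1 was lower there by 2.01 on the log2 scale (-2.01 ± 0.24, adjusted p = 2.7e-05, edgeR).

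Heparan sulphate proteoglycans, which hold these ligands at the cell surface and in the matrix, differed in both directions. At day 1, 2 of 9 compared genes of 14 were higher and 6 lower, with a median log2 ratio of -1.21, and with TMM or DESeq2 factors 2 were higher and 4 lower. On total UMIs, 15.5% of all genes compared were higher at day 1 and 24.3% lower. Sdc4, syndecan 4, was 560 CPM against 95.8 in the quiescent library (5.84-fold, interval 5.42 to 6.31), while Gpc6, a glypican, was 10.8 against 51.2 (4.76-fold lower, interval 4.14 to 5.47) and Col18a1 was 13.3 against 61.2 (4.6-fold lower, interval 4.05 to 5.21). At day 4, Sdc3 was 26.0 against 4.79 CPM (5.44-fold, interval 3.88 to 7.87). Sulf2, a sulphatase that edits heparan sulphate, was 11.0 at day 1 against 66.1 (6.00-fold lower, interval 5.27 to 6.83). Of the genes of heparan sulphate synthesis and editing, 2 of 6 compared were lower at day 1 and 2 at day 2, 0 higher. With TMM or DESeq2 factors 1 (Sulf2) was lower on each day. Among all genes compared on total UMIs, 24.3% were lower at day 1 and 17.4% at day 2.

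On total UMIs, 15.5% of all genes compared were higher at day 1 and 24.3% lower, and 11.3% and 17.4% at day 2. Among the 12 genes for midkine and pleiotrophin receptors, 6 were compared, with 1 higher and 2 lower at day 1, 1 higher and 3 lower at day 2, and none at days 4 and 14. With TMM or DESeq2 factors Ncl was the only one of them counted, higher at both days; Itgb3, an integrin subunit at 20.4 CPM before injury, then fell under the 20 CPM minimum, with a log2 ratio of -1.04 at day 1 with TMM factors and -1.01 with DESeq2. Ncl, nucleolin, was 1214 CPM at day 1 against 224 (5.42-fold, interval 5.16 to 5.70), and Lrp1, a large endocytic receptor, was 172 against 478 (2.78-fold lower, interval 2.67 to 2.89; log2 ratio -0.92 with TMM factors). Of the HGF activators and inhibitors, 3 of 12 were compared. Plau, urokinase, was 25.9 CPM at day 4 against 66.4 (2.56-fold lower, interval 2.28 to 2.88). Plat, of the same list, went the other way, with 451 CPM at day 4 against 235. Its log2 ratio of 0.94 was under the 2-fold limit, and it passed with TMM (1.07) and DESeq2 factors (1.09). Among 12 other trophic factor genes, Ntf3, neurotrophin 3, showed the lowest ratio, with 6.19 CPM at day 1 against 79.4 (12.8-fold lower, interval 11.1 to 14.9). Igf2 was 21 at day 14 against 6.70 (3.14-fold, interval 2.31 to 4.35), just over the 20 CPM minimum and under it with TMM or DESeq2 factors, and Fst, follistatin, was 40.0 at day 4 against 118 (2.95-fold lower, interval 2.70 to 3.22).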

How the data were processed

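For each of 5 single-cell libraries the deposited values are raw UMI counts of every gene in every barcode. Per the submitters' processing notes, Cell Ranger was used with mm10; which version, and how it called cells, is not stated there. The 7 genes, the pathway lists and the marker sets were chosen with earlier results of these data known.

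A barcode needed 500 genes and no more than 10% mitochondrial UMIs, and no doublet caller was run. UMIs were summed per library and class (Python 3.11.15). The 95% intervals are exact: conditional binomial for a ratio, Poisson for a level, Clopper-Pearson for a share. A prior of 1 CPM was added before log2 ratios were taken. With 1 library per day no test between days was made. Classes were compared in 15 sums with edgeR 4.0.16 in R 4.3.3 (TMM factors, quasi-likelihood test, library as a block, threshold 0.05); DESeq2 1.42.0 was an alternative. The library as a block pairs classes of the same library. Both procedures were run on simulated counts. Those counts held no measured variation between libraries of the same day, so the runs cannot tell how reliable the differences between days are.

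Besides the 7 genes, at most 4 genes of each pathway list were named, those with the largest absolute log2 ratio on any day at 20 CPM or more, and 3 genes most like each member by Pearson's r. A result that this rule would name is not reported here. Receptors at low counts, Spp1, S100b, Sbspon, Thbs4 and Omd were named after their values were seen. Positions come from GENCODE M21, which held 27645 of the 28001 features; upstream bases come from the RefSeq promoter table, which had a row for 5 of the 7 genes. Alternatives changed the scaling, the minimum level, the cells kept, the class cut, the depth and the model.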

Additional observations from a re-analysis of the deposited data

Results flagged for a closer look

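In 6 comparisons of libraries 2 cell classes moved in opposite directions; with 1 library per day the difference between the classes was not tested. From the quiescent library to day 1, Fgf7 was 2.45-fold in tenocytes and 0.768-fold in remaining cells, though the latter turns with other scaling factors. From quiescent to day 4, Ptn was 3.72-fold in remaining cells and 0.755-fold in tenocytes. From day 4 to day 14, Ptn was 2.32-fold in tenocytes and 0.250-fold in remaining cells, while Fgf7 was 1.36-fold in remaining cells and 0.261-fold in tenocytes. Over the same interval Mdk was 1.21-fold in remaining cells and 2.04-fold in tenocytes, and 0.237-fold in mural cells, where it rests on 34 and 11 UMIs.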

How the results depend on the processing

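At day 1, where 3 of the 7 genes passed 2-fold, 1 passed with TMM factors and 1 with DESeq2 size factors (Ptn in both), 5 with no minimum level and 1 with a minimum of 50 CPM (Mdk). At day 2 the 3 became 6 with no minimum, 2 with a minimum of 50 CPM (Fgf2 lost), 2 with the mean of per-cell CPM (Fgf7 lost) and 4 with only cells of at least 3000 UMIs (Fgf1 added). At day 4 the 2 became 3 with TMM or DESeq2 factors (Mdk added), 5 with no minimum, 1 with a minimum of 50 CPM, 4 with only cells of at least 3000 UMIs (Mdk and Fgf1 added) and 1 with the mean of per-cell CPM. At day 14 the 1 became 2 with no minimum. A changed minimum changes which genes can be counted; for the other settings the cause was not tested. Counts over the pathway lists under the other scalings stand beside each list. Of 90 alternative values of the called ratios, 69 moved by less than the interval and 21 by more, and none changed direction. The highest library of each of the 7 genes was the same in 10 alternatives that were added after the data were seen. In tenocytes the 3 calls became 6 with no filter on low counts and 1 with no replicate block (pairing by library), and in mural cells the 4 became 2 without that block. Leaving out 1 library gave 2 to 3 calls in tenocytes and 3 to 4 in mural cells. Fgf7 passed in tenocytes with no filter (adjusted p = 0.00579, edgeR) and at a class cut of 10 UMIs (adjusted p = 0.0310, edgeR), and in mural cells Fgf2 missed at 3000 UMIs (adjusted p = 0.0865, edgeR) and Ptn at a class cut of 3 (adjusted p = 0.0836, edgeR). Without the block the genes called over all genes fell from 635 higher and 822 lower to 240 and 271 in tenocytes, and from 1003 and 1619 to 587 and 586 in mural cells. Shares of cells depend on depth: of 70 alternative shares, 66 moved by more than their interval when thinning was changed or left out. Hgf and Fgf10 rest on 12 to 300 UMIs in a library, and mural values on at most 34, which limits what can be told apart there.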
